A study of Mus musculus with 6 samples.

Results

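The genes for platelet-derived growth factor (PDGF) receptors and ligands were examined in 6 mouse brain tumor libraries. The 6 members were taken by name from the deposited table, which holds 24514 named genes: the receptors Pdgfra and Pdgfrb and the ligands Pdgfa, Pdgfb, Pdgfc and Pdgfd. The tumors arose in CD-1 IGS mice after in utero electroporation, a method that places DNA in cells of the embryonic brain with electric pulses. All 6 tumors, controls included, carried a mutant Pdgfra written PdgfraD482V in the titles and a construct written DNp53. By title, 3 libraries also carried FOXR2, a forkhead transcription factor, and 3 were Control. The sources used here do not give the age of the animals, the promoters that drove the constructs, the species of their coding sequences or any pooling of animals. The sheet of sample groups that came with the count table contradicts the titles for all 6 libraries, so the groups are called "titled FOXR2" and "titled Control", and every direction below turns round if the sheet is right. Whether each sample was a separate animal is not stated in the labels, so the p-values reflect the spread among these samples only. Each title held male and female libraries (below), so its libraries did not all come from the same animal. Part of the spread may still be technical.

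PDGF ligands are secreted dimers that bring 2 receptor chains together, after which the receptors phosphorylate each other and recruit adaptors of the RAS-ERK and PI3K pathways. PDGF-AA and PDGF-CC act mainly through the alpha receptor, PDGF-BB through both receptors, and PDGF-DD mainly through the beta receptor. In brain the alpha receptor marks oligodendrocyte precursor cells and the beta receptor marks pericytes and other perivascular cells, while Pdgfb is made by endothelium among other cells. Altered Pdgfra is a known driver of glioma.

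The mutation that all tumors share sits in the receptor's coding sequence, so the mouse Pdgfra reading frame of 1089 codons (the longest among the GENCODE M21 transcripts of the gene) was read at the position named in the titles and at the aspartate that follows the kinase motif of the activation loop. That aspartate is the site of a well-known activating change to valine. Both stretches are given 5′ to 3′ with 6 codons on each side, and the capitals mark the codon itself.
Pdgfra codon 482: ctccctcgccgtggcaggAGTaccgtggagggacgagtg
Pdgfra codon 842: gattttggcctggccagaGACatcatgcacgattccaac
The codon at the titled position, 482, codes for serine in mouse, whereas the activation loop codon, 842, codes for aspartate. The titles name an aspartate, D482V. The construct's own sequence was not analysed here, and gene-level counts cannot separate reads of the construct from those of the animal's own Pdgfra.

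Values per library are listed in the order of replicates 1, 2 and 3 of each title. Library depth ranged from 13429489 to 17927025 counts. CPM values are counts scaled for depth with TMM factors, and the detection floor of 3 counts stood for 0.175 to 0.219 CPM. Xist and Y-linked genes put FOXR2 replicates 1 and 3 and Control replicate 1 in males, and the other 3 libraries in females. FOXR2 replicate 2 stood apart in 18 markers of microglia and macrophages, which summed to 1878 CPM there and to 47.6 to 68.6 in the other 5 libraries. Oligodendrocyte precursor markers were present in all 6 libraries, with 16 of 16 at 3 or more counts in each. Of 15 endothelial markers, Slco1a4 was at 0 throughout and Cldn5 and Emcn had at most 3 counts in any library, while Egfl7 had 101 to 498, Ly6c1 33 to 323 and Vwf 13 to 99. Of 15 pericyte and smooth muscle markers, Rgs5 had 1 to 6 counts and Higd1b 0 or 1, while Notch3 had 148 to 454, Mcam 78 to 1412 and Anpep 0 to 208.

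Pdgfra was by far the most abundant member in every library, Pdgfa and Pdgfc followed, and Pdgfrb, Pdgfb and Pdgfd were near the detection limit. Of the 6 members, Pdgfra, Pdgfa and Pdgfc passed the filter on low counts and were tested, and 0 of these 3 were called by edgeR's quasi-likelihood test (Benjamini-Hochberg adjusted p under 0.05), where 2.29% of 13082 tested genes were called. At an unadjusted p under 0.05 the test passed 24.9% of all tested genes, and Pdgfra among the members. Per transcript length, mean levels over the 6 libraries were 935 TPM (counts divided by the length of the longest annotated transcript and scaled to a common total) for Pdgfra, 32.1 for Pdgfa, 6.18 for Pdgfc, 0.665 for Pdgfb, 0.351 for Pdgfd and 0.284 for Pdgfrb. The first 3 kept this order in every library, with Pdgfra at 620 to 1315 TPM, Pdgfa at 14.4 to 54.2 and Pdgfc at 3.85 to 8.25. The last 3 all reached 0 TPM in at least 1 library, and their order changed from library to library.

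**Figure D1:**
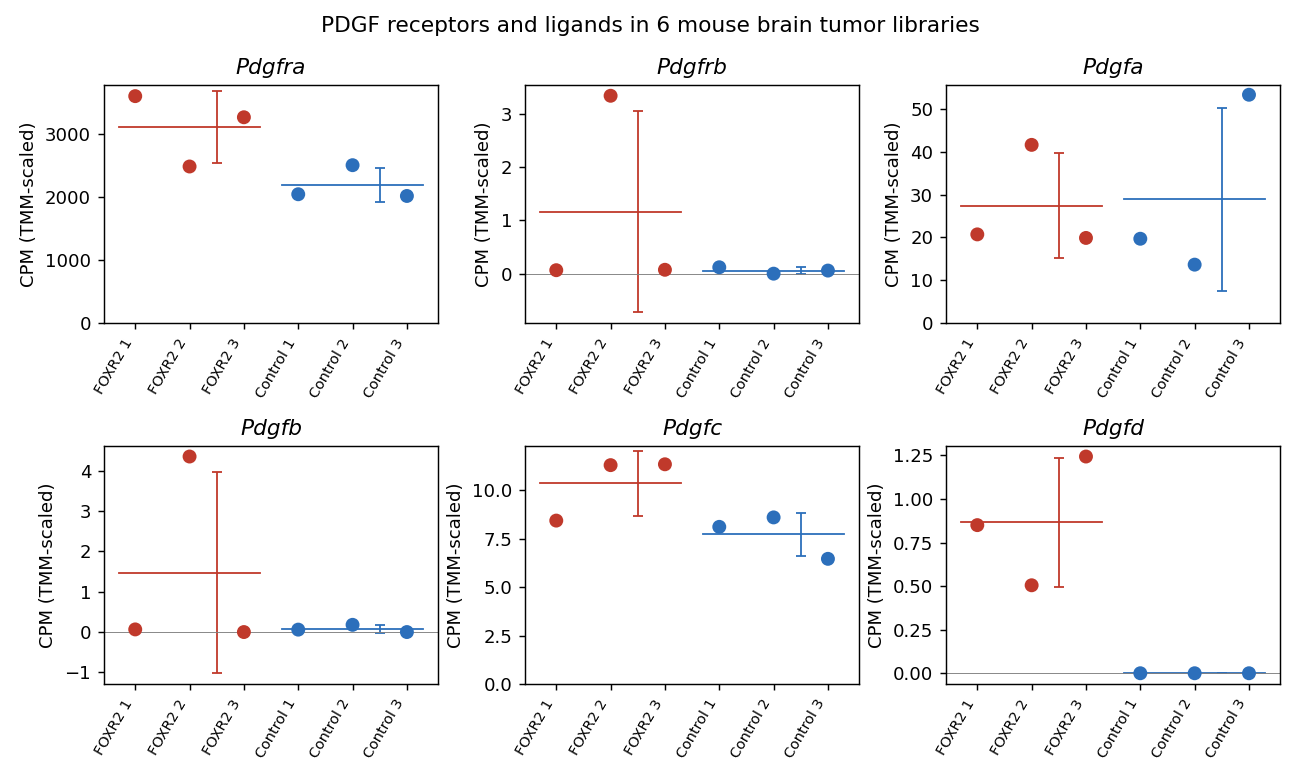
CPM (TMM-scaled, linear axes) of the 6 genes in each library, with titled FOXR2 in red and titled Control in blue; horizontal lines are group means and bars the SD over 3 libraries. Pdgfra lies between 2021 and 3606 CPM, Pdgfrb and Pdgfb stand above 1 CPM in FOXR2 replicate 2 alone, and Pdgfd is at 0 in the 3 Control libraries.

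Pdgfra encodes the alpha receptor, and the electroporated construct supplies a mutant form of it to all tumors. It took 55166, 39458 and 44720 counts in the FOXR2 replicates and 34108, 42045 and 34735 in the Control replicates. These are 0.359%, 0.254% and 0.334% of all named counts against 0.211%, 0.244% and 0.194%, and each exact 95% binomial interval is narrower than 0.01 percentage points to either side, for counting error only. On the CPM scale the libraries stood at 3606, 2489 and 3271 against 2049, 2510 and 2021. FOXR2 replicates 1 and 3 were the highest, while FOXR2 replicate 2 lay just under Control replicate 2, so the groups overlapped, as they did for all 3 tested members; 30.3% of tested genes had groups without overlap in CPM.

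The mean Pdgfra level was 3122 ± 573 CPM for titled FOXR2 and 2193 ± 275 CPM for titled Control (SD, n = 3 each), with an exact permutation p (two-sided) of 0.2; 3 against 3 libraries cannot give less than 0.1. The fitted difference was 0.51 ± 0.21 (SE) on the log2 scale, a fold of 1.43, with a 95% interval of 0.023 to 1.00 and an adjusted p of 0.187 by edgeR. The difference therefore did not pass the test over all genes. Within sexes the values split. In males FOXR2 replicates 1 and 3 (3606 and 3271 CPM) exceeded Control replicate 1 (2049), whereas in females FOXR2 replicate 2 (2489) lay between Control replicates 2 and 3 (2510 and 2021). FOXR2 replicate 2 was the only female library of its title, and Control replicate 1 the only male library of its title. FOXR2 replicate 2 was also the library high in microglia and macrophage markers, so sex cannot be told apart from that library's other traits. With sex as a covariate the edgeR log2 fold change was 0.44 (adjusted p = 0.404).

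On the per-length scale the Pdgfra groups no longer overlapped, at 1315, 925 and 1226 TPM in the FOXR2 replicates and 724, 799 and 620 in the Control replicates. The log2 ratio of group means was 0.69 in TPM and 0.51 in CPM. The median of all tested genes was itself at 0.19 in TPM and 0.0081 in CPM. A gene's length is the same in all libraries, so between libraries the scales differ only by a common factor per library. The like shift of the median follows from that scaling, and so does the lost overlap of Pdgfra. Groups without overlap were also common: 20.5% of tested genes with a length were higher in every library titled FOXR2 on the TPM scale, and 31.1% did not overlap in either direction. Among all genes ranked by TPM, Pdgfra stood at places 113 to 148 in the libraries titled FOXR2 and 154 to 192 in those titled Control.

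Markers of 3 other lists are given beside Pdgfra. For oligodendrocyte precursors, the brain cells known for Pdgfra, 16 markers summed to 7923, 6429 and 7487 CPM in the FOXR2 replicates and to 5712, 4283 and 6264 in the Control replicates, which do not overlap. Of 15 tested, 10 were fitted above 0 and 5 below, beside 50.8% of all tested genes above 0, and 0 were called by edgeR. At an unadjusted p under 0.05 there were 4 of the 15, near the 24.9% of all tested genes. The median log2 fold change was 0.34, against 0.011 over all tested genes. Control replicate 2, the highest of the Control libraries in Pdgfra, was the lowest of all 6 in this sum. Ptprz1, a receptor phosphatase, contributed most to the gap at 1493, 1268 and 1504 against 857, 681 and 580 CPM. For neurons 14 markers summed to 1135, 1137 and 1295 CPM in the FOXR2 replicates and to 838, 802 and 779 in the Control replicates, again without overlap. Of 12 tested, 9 were fitted above 0, edgeR called 2 higher and 0 lower (2.29% of all tested genes were called), and the median log2 fold change was 1.32. The called genes were the synaptic vesicle genes Syt1 (4.08 ± 0.67, edgeR adjusted p = 0.0435) and Syn1 (1.32 ± 0.25, adjusted p = 0.0488). Nefl and Nefm went the other way, lower in every library titled FOXR2 (-1.06 ± 0.51 and -1.73 ± 0.51, edgeR adjusted p = 0.250 and 0.102). Map2 was the largest part of the sum and its groups overlapped, at 561, 620 and 807 against 613, 599 and 463 CPM. For astrocytes 10 markers summed to 906, 656 and 1878 CPM against 882, 654 and 774, and these groups overlapped. Of 9 tested, 6 were fitted above 0 and edgeR called 1 higher, the glutamate transporter gene Slc1a2 (1.74 ± 0.25, adjusted p = 0.0379), with a median of 0.58 over the list. Aldh1l1 and Gja1 were among those fitted below 0 (-1.71 ± 0.62 and -1.95 ± 0.93, edgeR adjusted p = 0.150 and 0.246). Aldoc alone made up 1153 CPM of the sum in FOXR2 replicate 3. With a library left out, Syt1 and Slc1a2 were called without FOXR2 replicate 2 (adjusted p = 0.0471 and 0.0452) and in none of the other 5 fits, and Syn1 in none of the 6 (0.0592 to 0.167). The part of these cells in the Pdgfra values was not tested, and in bulk tumor RNA a different number of such cells and a different amount of RNA per cell cannot be told apart.

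Genes beside Pdgfra on mouse chromosome 5 did not share one direction. Of 13 neighbours, 10 were tested, and 4 were fitted above 0 and 6 below. EdgeR called 0 of them, beside 2.29% of all tested genes, and their median log2 fold change was -0.13. Kit, the receptor tyrosine kinase gene next to Pdgfra, stood at 75.8, 42.6 and 113 CPM in the FOXR2 replicates and 43.3, 22.3 and 12.4 in the Control replicates. Only FOXR2 replicate 2 fell within the Control range, and the log2 fold change of 1.57 ± 0.51 had an adjusted p of 0.124. On the other side, Chic2 was at -0.098 ± 0.31, Lnx1, a ubiquitin ligase gene, at 1.00 ± 0.36 and the mRNA processing gene Fip1l1 at -0.30 ± 0.24. Further along, the circadian gene Clock was at 0.91 ± 0.30 and the exocyst gene Exoc1 at -0.47 ± 0.20. The groups did not overlap for 3 of the 10, with Clock higher and Exoc1 and Srd5a3 lower in every library titled FOXR2, beside 30.3% of all tested genes. The remaining tested neighbours, Kdr, Srd5a3, Tmem165 and Scfd2, lay between -0.42 and 0.13. Gsx2, Pdcl2 and Nmu had at most 2 counts in any library.

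**Figure D2:**
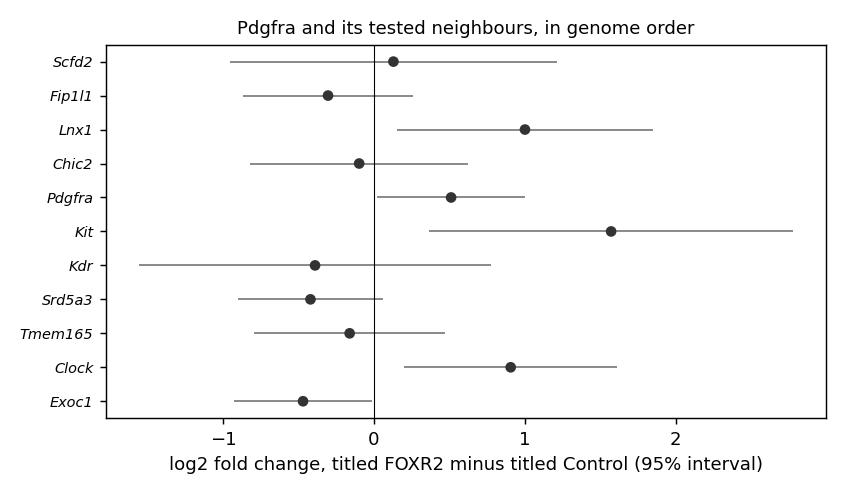
Fitted log2 fold change (titled FOXR2 minus titled Control, with 95% intervals) of Pdgfra and its 10 tested neighbours in genome order from top to bottom. The points fall on both sides of 0 along the region, and no gene passed the adjusted threshold.

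Pdgfrb, the beta receptor, was detected above the floor of 3 counts in 1 library. It had 1, 53 and 1 counts in the FOXR2 replicates and 2, 0 and 1 in the Control replicates, and so failed the filter. The 53 counts of FOXR2 replicate 2 have an exact 95% Poisson interval of 39.7 to 69.3, far above the 0 to 7.22 that cover the other 5 libraries (counting error only). The group means of 1.16 ± 1.89 and 0.0594 ± 0.0601 CPM (SD, n = 3 each; exact permutation p = 0.4) rest on that single library.

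Pdgfb, the ligand best known for recruiting pericytes to vessels, had the same pattern, with 1, 69 and 0 counts in the FOXR2 replicates and 1, 3 and 0 in the Control replicates. The Poisson interval of the 69 counts was 53.7 to 87.3. Group means were 1.47 ± 2.49 and 0.0797 ± 0.0912 CPM (SD, n = 3 each; exact permutation p = 0.7), and without FOXR2 replicate 2 the difference in mean log2(CPM + 0.5) turned from positive to -0.11.

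Some genes of other cell types were also high in FOXR2 replicate 2 and low in the remaining libraries. The fibroblast collagens Col1a1, Col1a2 and Col3a1 had 191, 201 and 195 counts there and at most 16, 3 and 3 in any other library, and Dcn had 62 against at most 8. The endothelial genes Pecam1 and Cdh5 had 32 and 24 counts against at most 6 and 2, and Acta2 of smooth muscle had 67 against at most 14. The macrophage receptor gene Csf1r, of the same receptor class as Pdgfrb, had 1978 counts against at most 5. Other genes of these lists did not peak there: Egfl7 and Anpep had 129 and 150 counts in FOXR2 replicate 2 and 498 and 208 in Control replicate 3. The sums of 14 fibroblast, 15 pericyte and smooth muscle and 15 endothelial markers were 271, 104 and 33.1 CPM in FOXR2 replicate 2. Each of these sums was exceeded in a Control library. Fibroblast sums ran from 124 to 271 CPM in the libraries titled FOXR2 and from 98.0 to 571 in those titled Control. Pericyte and smooth muscle sums ran from 30.9 to 104 and from 61.7 to 111, and endothelial sums from 33.1 to 36.4 and from 23.4 to 40.4. The part of these cells in the Pdgfrb and Pdgfb counts was not tested.

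**Figure D3:**
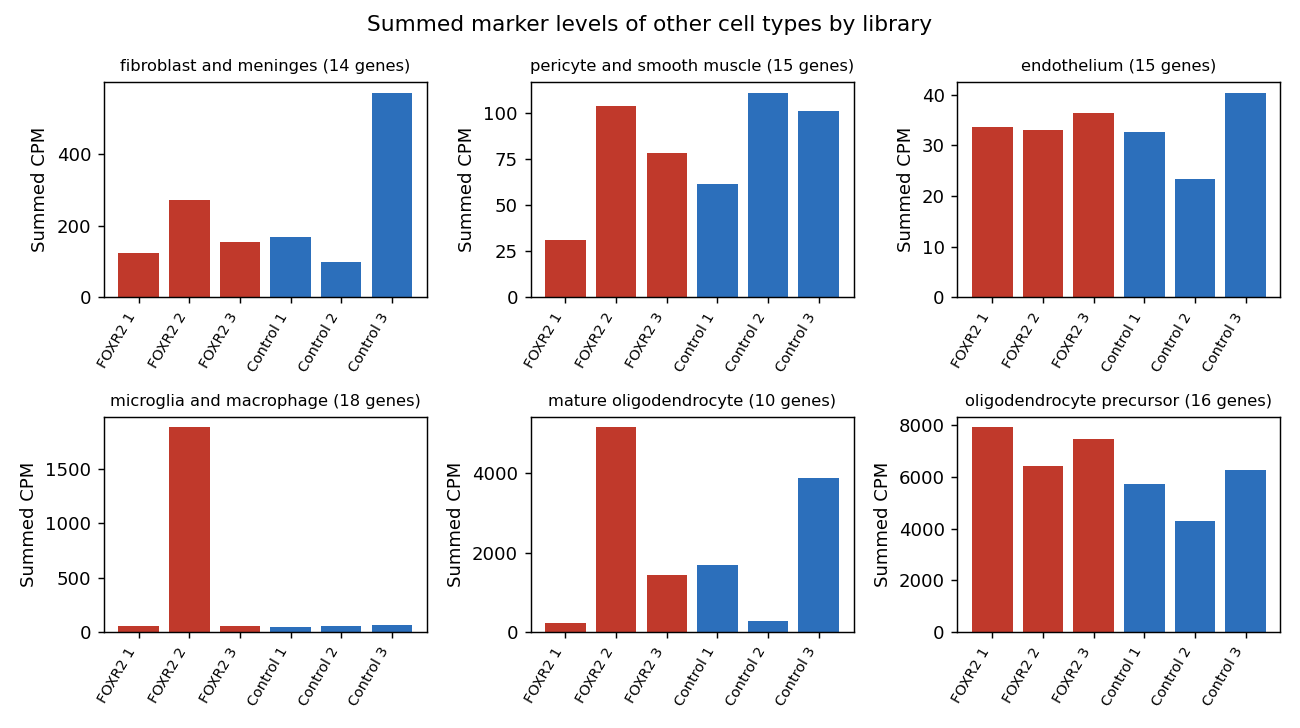
Summed CPM of 6 marker lists in each library (bars, linear axes from 0; titled FOXR2 in red, titled Control in blue). Microglia and macrophage markers reach 1878 CPM in FOXR2 replicate 2 and 68.6 or less elsewhere, while the endothelial sum lies between 23.4 and 40.4 CPM in all 6 libraries.

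Pdgfa, which encodes the main ligand of the alpha receptor, was the leading ligand in every library. It took 317, 659 and 272 counts in the FOXR2 replicates and 328, 229 and 915 in the Control replicates, or 20.7, 41.6 and 19.9 CPM against 19.7, 13.7 and 53.2. One library of each title was high, FOXR2 replicate 2 and Control replicate 3, and the other 4 lay between 13.7 and 20.7 CPM. The means of 27.4 ± 12.3 and 28.9 ± 21.3 CPM (SD, n = 3 each) differed by less than the spread within either group (log2 fold change -0.072 ± 0.54, 95% interval -1.34 to 1.20, edgeR adjusted p = 0.948; exact permutation p = 0.8). The interval is wide enough to hold a change of over 2-fold in either direction. Without Control replicate 3 the log2 fold change was 0.71 (adjusted p = 0.355).

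The 2 libraries high in Pdgfa were also the 2 highest in markers of mature oligodendrocytes. The sum of 10 such markers, Mbp of myelin among them, was 5160 CPM in FOXR2 replicate 2 and 3895 in Control replicate 3. FOXR2 replicates 1 and 3 held 221 and 1438 CPM of it, and Control replicates 1 and 2 held 1697 and 285. Control replicate 2 was lowest in Pdgfa and second lowest in this sum. The same libraries also led in other lists. Fibroblast and meninges markers summed to 271 CPM in FOXR2 replicate 2 and 571 in Control replicate 3, where Ptgds alone gave 506. The 6 platelet and megakaryocyte markers summed to 16.6 and 20.3 CPM. Control replicate 2 was lowest in both lists, at 98.0 and 2.81 CPM. The part of any of these cell types in the Pdgfa level was not tested.

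Pdgfc, a ligand that proteases must activate after secretion, was the steadiest of the ligands. Its counts were 129, 179 and 155 in the FOXR2 replicates and 135, 144 and 111 in the Control replicates, or 8.43, 11.3 and 11.3 CPM against 8.11, 8.60 and 6.46. FOXR2 replicates 2 and 3 were the highest, and FOXR2 replicate 1 fell below Control replicate 2. The means were 10.4 ± 1.66 and 7.72 ± 1.12 CPM (SD, n = 3 each; exact permutation p = 0.2), with a log2 fold change of 0.43 ± 0.28, a 95% interval of -0.24 to 1.09 and an edgeR adjusted p of 0.395. Per length the Pdgfc groups did not overlap, at 5.97, 8.14 and 8.25 TPM in the FOXR2 replicates and 5.56, 5.31 and 3.85 in the Control replicates. FOXR2 replicate 1 was the nearest to the Control range, and 20.5% of tested genes with a length were likewise higher in every library titled FOXR2. As for Pdgfra, the lost overlap came from the scaling of the libraries only.

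Pdgfd, the other ligand activated by proteases, was the 1 member whose groups did not overlap in CPM. It had 13, 8 and 17 counts in the FOXR2 replicates and 0 in each of the Control replicates. The Poisson intervals of the 3 libraries titled FOXR2 were 6.92 to 22.2, 3.45 to 15.8 and 9.90 to 27.2 counts, and a count of 0 allows up to 3 counts by the floor used here. In CPM the libraries titled FOXR2 stood at 0.850, 0.505 and 1.24, a mean of 0.866 ± 0.370 (SD, n = 3; exact permutation p = 0.1, the smallest possible). The mean of the libraries titled FOXR2 was 4.87 times a mean floor of 0.178 CPM (3 counts in each Control library). That ratio makes no allowance for counting error. The Poisson interval of a count of 0 reaches 3.69 counts, above the low end of 3.45 in FOXR2 replicate 2.

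Pdgfd failed the filter on low counts, so the main test gave it no p, and in an edgeR fit with no filter its adjusted p was 0.0612. DESeq2, run without that filter, called it higher (adjusted p = 0.00662), where it called 6.91% of 13698 genes higher. Groups without overlap, higher in every library titled FOXR2, were found in 11.5% of the 18490 genes with a count. A pattern as complete as that of Pdgfd, with 0 counts in every Control library and at least 3 in every library titled FOXR2, was found in 11 genes, or 0.0595%, Pdgfd included. That rule was set after its counts were seen. Pdgfrl, a receptor-like gene outside the family of working receptors that was likewise picked after its values were seen, had 18, 13 and 43 counts in the FOXR2 replicates and 6, 6 and 3 in the Control replicates (log2 fold change 2.49 ± 0.71, edgeR adjusted p = 0.0952).

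The Pdgfd promoter is shown because Pdgfd had counts in the 3 libraries of 1 title and 0 in those of the other, and because the series concerns a forkhead factor and ETS factors. Promoter sequences from RefSeq on GRCm38.p6 were matched by symbol for 4 of the 6 members. The Pdgfd window spans chr9:6168236-6168535 on the plus strand, from 250 bases before the annotated start to 50 after it, and the capitals mark GGAA, the core of ETS motifs, on either strand (TTCC on the strand shown).
Pdgfd promoter: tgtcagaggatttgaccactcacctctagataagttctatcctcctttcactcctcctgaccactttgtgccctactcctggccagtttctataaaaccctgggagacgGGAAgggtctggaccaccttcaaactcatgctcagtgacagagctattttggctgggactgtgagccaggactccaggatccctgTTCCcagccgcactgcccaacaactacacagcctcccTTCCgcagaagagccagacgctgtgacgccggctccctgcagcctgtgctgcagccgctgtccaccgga
The window holds 3 GGAA matches, where the mean over 32851 promoters of this length was 3.52 and 96.0% held at least 1. It holds 0 matches to the fuller ETS motif CCGGAAGT, which contains the GGAA core and occurs in 3.89% of promoters. The forkhead motif TGTTTAC also had 0 matches, and 3.65% of promoters hold it. A match is a run of letters and not a measured binding site.

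Among the 4 ligands, Pdgfa made up most of the transcripts in every library. Per length, Pdgfa took 72.6% to 93.4% of summed ligand TPM and Pdgfc 6.63% to 26.7%. Pdgfb took 5.91% in FOXR2 replicate 2 and at most 0.666% elsewhere, while Pdgfd took 2.13%, 0.644% and 2.99% in the FOXR2 replicates and 0% in the Control replicates. The alpha receptor outnumbered all ligand transcripts in every library, by 41.4, 14.6 and 36.1 times in TPM in the FOXR2 replicates and by 25.2, 40.2 and 10.7 times in the Control replicates. These ratios take 6834 bases, the longest transcript of the mouse gene, as the length of Pdgfra. Its counts may include reads of the construct, whose transcript length is not known here, so the true transcript ratios are not known. The ratios of the titles overlapped, and the 2 libraries high in Pdgfa had the 2 lowest ratios.

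**Figure D4:**
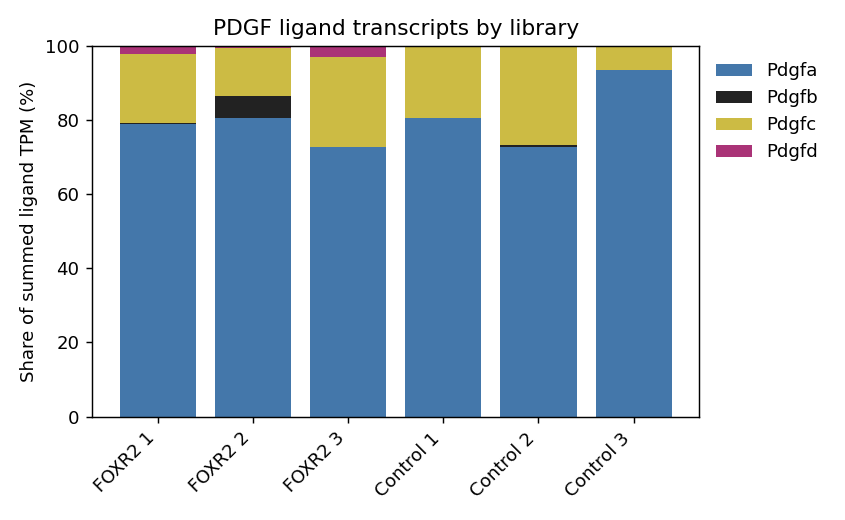
Share of summed PDGF ligand TPM (percent, stacked bars to 100) taken by each ligand in each library. Pdgfa takes 72.6% to 93.4%, Pdgfb is visible in FOXR2 replicate 2, and Pdgfd appears in the 3 libraries titled FOXR2.

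Among genes for proteins that cut or bind PDGF ligands, 1 passed the test. Of 13 such genes 12 were tested, 9 were fitted above 0, and edgeR called 1 higher and 0 lower, where 0.91% of all tested genes were called higher and 1.38% lower. Their median log2 fold change was 0.46, against 0.011 over all tested genes. The called gene was Thbs1, which encodes the matrix protein thrombospondin. It rose from 0.178 ± 0.0594 CPM with the Control title to 5.04 ± 3.92 with the FOXR2 title (SD, n = 3 each; log2 fold change 4.77 ± 0.87, edgeR adjusted p = 0.0462), with 17, 142 and 69 counts against 2, 4 and 3. The call was lost whichever library was left out (adjusted p 0.0518 to 0.172).

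Lrp1, an endocytic receptor that associates with the beta receptor, stood at 1036, 419 and 687 CPM in the FOXR2 replicates and 246, 252 and 288 in the Control replicates. The groups did not overlap, but the log2 fold change of 1.45 ± 0.32 had an edgeR adjusted p of 0.0614. Nrp1, a co-receptor of several growth factors, stood at 27.4, 28.3 and 22.3 against 8.41, 11.8 and 2.33 CPM (adjusted p = 0.105), again without overlap. Lrp1 was called without FOXR2 replicate 2 (adjusted p = 0.0437), the 1 fit without a library in which it was. Plat, the gene of the protease tPA that activates PDGF-CC, was at 0.54 ± 0.32 on the log2 scale. Plau, whose product uPA activates PDGF-DD, had 549 counts in FOXR2 replicate 2 and 2 to 42 elsewhere. Furin, which cuts the PDGF-A and PDGF-B precursors, was at -0.32 ± 0.19.

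Adaptors, kinases and transcription factors directly below the receptors gave 0 calls by edgeR among 36 tested, beside 2.29% of all tested genes. At an unadjusted p under 0.05 there were 8 higher and 3 lower, beside 24.9% of all tested genes, and the median log2 fold change was 0.18. Pik3r1, the regulatory subunit of PI3K, had the smallest adjusted p of the list at 0.0598, with 307, 330 and 435 CPM in the FOXR2 replicates and 158, 121 and 205 in the Control replicates. The adaptor genes Nck2 and Gab1 followed with log2 fold changes of 1.63 ± 0.40 and 1.01 ± 0.28 (adjusted p = 0.0740 and 0.0948). On the other side, the adaptor gene Shc1 was at -0.69 ± 0.20 (adjusted p = 0.0953).

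**Figure D5:**
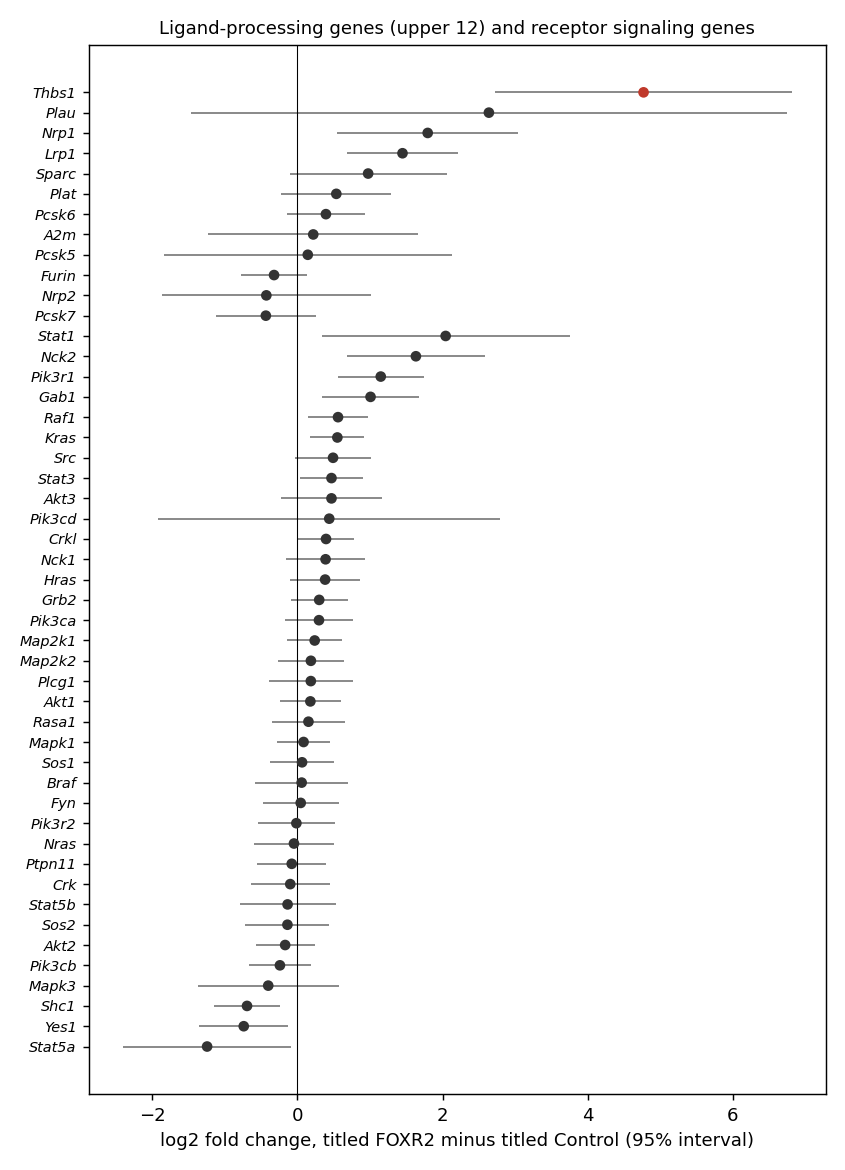
Fitted log2 fold change (titled FOXR2 minus titled Control, with 95% intervals) of 12 tested genes for ligand processing and binding (upper) and 36 receptor signaling genes (lower). Red marks an adjusted p under 0.05, which Thbs1 alone reached.

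Genes that limit receptor signaling likewise gave 0 calls by edgeR among 16 tested of 17, where 2.29% of all tested genes were called. Of these 16, 11 were fitted above 0, beside 50.8% of all tested genes, with a median log2 fold change of 0.22. The phosphatase gene Ptpn2 was at -0.75 ± 0.21 (edgeR adjusted p = 0.0956) and Lrig1, an inhibitor of receptor kinases, at 1.74 ± 0.52 (adjusted p = 0.105). Among related receptors and ligands 11 of 15 were tested and 0 were called, beside the same 2.29%, with a median of 0.32. After Kit came the VEGF receptor gene Flt1 and the ligand gene Vegfb, at 2.66 ± 1.12 and -0.68 ± 0.34 (adjusted p = 0.198 and 0.266).

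The genes whose levels followed each tested member most closely over the 6 libraries were found by Pearson's r of log2(CPM + 0.5) among 9280 genes whose mean reached 10 CPM. Each was picked for its likeness over only 6 libraries, so r is given as a description without a test. Sox5 (r = 0.997), a Sox-family transcription factor, Sorcs2 (0.997), a sorting receptor, and Vps37a (0.990), of the endosomal sorting machinery, were most like Pdgfra. Sorcs2 had the same order of libraries, at 286, 69.3 and 238 CPM in the FOXR2 replicates and 36.1, 78.1 and 31.6 in the Control replicates. Most like Pdgfa were Limk2 (0.998), a kinase acting on the actin cytoskeleton, Adap1 (0.994) and Sh3gl3 (0.987), an endophilin gene. Most like Pdgfc were the calmodulin gene Calm2 (0.998), the cholesterol transporter gene Abca1 (0.993) and Gripap1 (0.993). None of these 9 genes was called between the titles by edgeR, where 2.29% of all tested genes were called. Sox5 and Sorcs2 had edgeR log2 fold changes of 2.26 and 2.03. DESeq2, which called 13.8% of 13698 genes, called Sox5, Sorcs2 and Abca1 (adjusted p = 0.00390, 0.00333 and 0.00914) and none of the others.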

How the data were processed

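Poly(A) RNA of 6 tumors was made into stranded libraries and sequenced as single reads, per the labels' protocols. The authors deposited raw read counts per gene symbol, whole numbers by their values. Per the submitters' processing notes, TopHat and DESeq2 were among the tools, and the human build hg19 is listed, although the symbols are mouse. The sources used here do not give the counting tool, annotation or use of strand, so no coordinates are given except those of a printed RefSeq promoter. The deposited sample sheet is a text file of group names, used only to compare it with the titles. Rows holding dates (23, 0.261% of counts) were left out.

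Groups and replicates came from the titles. edgeR 4.0.16 in R 4.3.3 was run on 13082 genes kept by filterByExpr (count minimum 10), with TMM factors, the quasi-likelihood F test, no covariate and Benjamini-Hochberg adjustment over all tested genes. Log2 fold changes are titled FOXR2 minus titled Control (prior count 0.125), with SE from the F statistic. An exact permutation test (two-sided) on log2(CPM + 0.5) was added for each member. TPM was computed from the counts with the longest GENCODE M21 transcript (98.5% of rows matched). Promoters came from RefSeq. The edgeR script was tested on simulated data.

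The members and gene lists were chosen with earlier results of these data known. Named genes are the 6 members, the called or 3 lowest adjusted p per pathway list, all tested Pdgfra neighbours and the 3 genes most like each tested member, leaving out predicted and unnamed genes; a gene that this rule takes is not reported here. Shc1, Lrp1, Nrp1, Plat, Plau and Furin, individual markers and Pdgfrl fall outside this rule and were named after their values were seen. Alternatives were RLE factors, total-count scaling, no filter, DESeq2 1.42.0, limma-voom (limma 3.58.1), the replicate number as a block, animal sex as a covariate, each library left out, and merged exon length for TPM.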

Additional observations from a re-analysis of the deposited data

How the results depend on the processing

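Pdgfra and Pdgfc kept a positive log2 fold change in all 13 alternative fits (0.40 to 0.65 and 0.31 to 0.56), and neither was called in any (lowest adjusted p = 0.132 and 0.344). Pdgfd stayed higher in all 8 alternatives that changed the scaling or left out a library (difference in mean log2(CPM + 0.5) of 1.22 to 1.62). With 0 counts in every Control library, none of these could have changed its direction. Merged exon length kept the TPM of every member within 1 SD. Pdgfa turned to 0.093 with limma-voom, 0.085 with the replicate block and 0.18 with sex as a covariate, and ran from -0.51 to 0.71 when libraries were left out; it was never called. Pdgfrb ran from 0.031 to 1.41 and Pdgfb from -0.11 to 1.53 when libraries were left out, the low end in each case without FOXR2 replicate 2. The limma-voom, block and sex fits used the filter and so held none of these 3 members. With no filter the adjusted p values of Pdgfd, Pdgfrb and Pdgfb were 0.0612, 0.219 and 0.273 by edgeR and 0.00662, 0.108 and 0.156 by DESeq2; without single libraries Pdgfd passed the edgeR filter in 4 fits, with adjusted p from 0.0700 to 0.181.

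Over all genes 300 were called by edgeR, 1893 by DESeq2, 7 with sex as a covariate, and 1 to 205 when libraries were left out. With the replicate block 0 were called by edgeR, where 2648 had an unadjusted p under 0.05. Same-numbered libraries did not deviate together (r = -0.016, -0.24 and -0.010), and differently numbered ones ran from -0.20 to 0.25. Deviations from means of 3 libraries cannot show whether the numbers pair the samples. DESeq2 called 6 signaling genes, 3 damping genes, 3 ligand-binding genes (Thbs1, Lrp1 and Nrp1), 1 related receptor and 1 neighbour, both of these being Kit. It called 13.8% of 13698 genes in all, so such counts are read beside that share. The ligand-binding call, of Thbs1, went to 0 with limma-voom, the replicate block or sex as a covariate. When libraries were left out the number of calls was 0 to 1, Thbs1 was lost each time, and the 1 call, without FOXR2 replicate 2, was Lrp1. Depth limits Pdgfrb, Pdgfb and Pdgfd, which lay at or under 3 counts in 3 or more libraries.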
